A study of Mus musculus with 9 samples.

Results

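The genes described here are the Wnt ligands, their receptors and the secreted, membrane and intracellular regulators of the Wnt pathway, measured by RNA sequencing in the mouse colon. They were taken by symbol: every gene whose name is Wnt, Fzd, Rspo, Dkk or Sfrp followed by a number, together with 15 named genes. The rule found 54 genes among the 35315 genes of the deposited table, 53 of them protein coding. The remaining one, Rspo4os, is an antisense RNA that entered only because its name begins like a member's.

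All libraries came from colon of 8-week-old wild-type (WT) C57BL/6J mice, in 3 groups of 3 libraries each. The GsMTx4 group drank 2.5% dextran sulfate sodium (DSS), a sulfated polysaccharide that injures the colonic lining, for 7 days. It received GsMTx4, a spider-venom peptide that blocks mechanosensitive cation channels, intravenously at 10 mg/kg on days 2, 4 and 6. The DSS group had the same drinking water and solvent injections on those days. The Control group drank normal water, with no injection given for it, so in a comparison of DSS with Control the DSS and the injections cannot be told apart.

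Wnt proteins are lipid-modified signals that act over short distances. They bind a Frizzled receptor together with an LRP5 or LRP6 coreceptor, which stops the destruction of beta-catenin and lets it switch on target genes through TCF/LEF factors. R-spondins amplify the signal by removing ZNRF3 and RNF43, the enzymes that clear Frizzled from the cell surface. In the colon this pathway keeps the stem cells at the crypt base dividing, and much of the ligand and R-spondin supply comes from stromal cells beneath the epithelium.

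The values are FPKM, a level scaled to transcript length and to the size of the library, as the authors deposited them. The read depth of each library is unknown. FPKM sums per library ran from 349125 to 440935, and 12830 to 14036 genes per library reached 1 FPKM. The colon markers Slc26a3, Cdx1, Muc2, Car1, Cdx2 and Hoxb13 were present in every library, the lowest value among these 6 being 5.21 FPKM for Cdx2. Genes were tested if they reached 1 FPKM in at least 3 of the 9 libraries. That left 14360 genes, which were fitted together with limma, a linear model with moderated variances, on log2(FPKM + 1). Every fold change below is on that scale, which understates changes of genes near 1 FPKM, and is given with its standard error. Every adjusted p is limma's, two-sided and Benjamini-Hochberg adjusted over all genes tested in its fit, with 0.05 as the threshold. In the main fit these are the 14360 genes, and alternatives with another filter tested other sets of genes. Whether libraries with the same label are from different mice is not stated, so a p-value here reflects variation among the sequenced samples only, which may be technical. In bulk tissue, fewer cells of a type and less RNA per cell cannot be told apart.

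Of the 54 members, 26 were tested and 28 lay below the filter. In DSS against Control, 4 members rose and 4 fell among the 26 tested, where 6.41% of all genes tested rose and 10.7% fell. Fzd1, Wnt5a, Wnt4 and Rspo3 rose, and Tcf7l1, Wls, Fzd7 and Lrp5 fell. Wnt4 met the filter only through the DSS group, where it was high, so its place in this count depends on that group. The median log2 fold change of the tested members was 0.16, beside -0.17 over all genes tested. In GsMTx4 against DSS, Fzd6 rose and Fzd1, Wnt5a and Sfrp1 fell, where 6.66% of all genes rose and 5.62% fell. The median was -0.13 for the members and 0.07 over all genes. In GsMTx4 against Control, limma called no member in either direction, where 0.188% of all genes rose and 0.0487% fell, and 2 members, Tcf7l1 and Fzd7, had an unadjusted p under 0.05. These medians and shares describe the members that passed the filter, not all 54. The comparisons share libraries, so a high or low DSS group enters both GsMTx4 against DSS and DSS against Control.

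**Figure D1:**
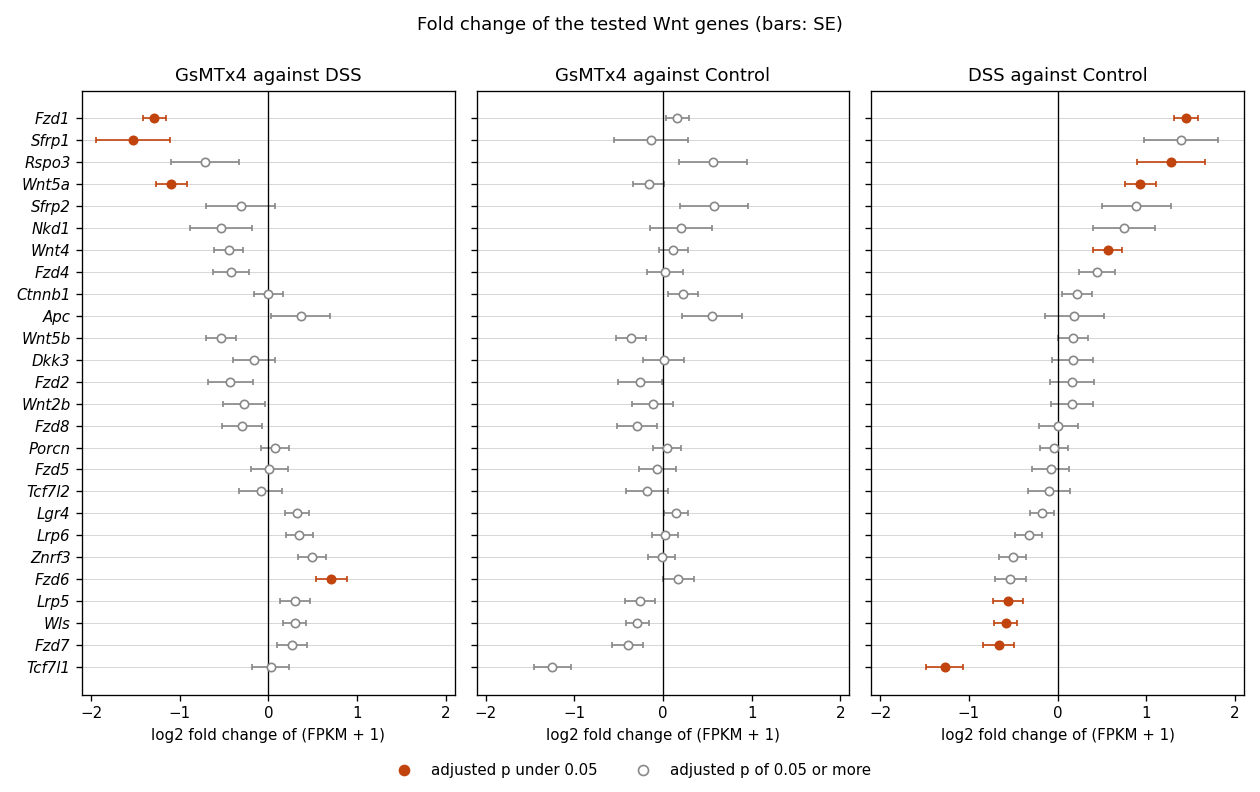
Log2 fold changes with their standard errors as bars (horizontal axis, log2 fold change of FPKM + 1) for the 26 tested members, ordered by their value in DSS against Control, in each of the 3 comparisons; filled points mark an adjusted p under 0.05. Fzd1 and Wnt5a lie far to the left in GsMTx4 against DSS and far to the right in DSS against Control, while Tcf7l1 lies to the left in both comparisons with Control.

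Promoter windows were read to set the nucleotides of members that changed beside their values. Each window is the 250 bases before a RefSeq transcription start on GRCm38.p6, and 34 of the 54 members had at least 1. The letters CTTTGAT, a core that TCF/LEF factors are known to bind, were searched on both strands, where the reverse reads ATCAAAG. They occurred in 2 of the 39 member windows, or 5.13%, and in 1053 of the 32851 windows of all genes, or 3.21%. The windows of Fzd1 and Fzd7 are printed because these receptors moved in opposite directions in DSS colon, and that of Wnt11 because it holds the letters, shown in capitals. The first is from the minus strand at chr5:4758217-4758466, the second from the plus strand at chr1:59481897-59482146 and the last from the plus strand at chr7:98834862-98835111, each written 5′ to 3′.
Fzd1: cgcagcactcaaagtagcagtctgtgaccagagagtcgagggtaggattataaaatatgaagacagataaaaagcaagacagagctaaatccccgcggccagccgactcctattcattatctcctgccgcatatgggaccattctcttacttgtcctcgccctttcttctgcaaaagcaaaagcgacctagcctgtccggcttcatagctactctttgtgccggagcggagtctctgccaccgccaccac
Fzd7: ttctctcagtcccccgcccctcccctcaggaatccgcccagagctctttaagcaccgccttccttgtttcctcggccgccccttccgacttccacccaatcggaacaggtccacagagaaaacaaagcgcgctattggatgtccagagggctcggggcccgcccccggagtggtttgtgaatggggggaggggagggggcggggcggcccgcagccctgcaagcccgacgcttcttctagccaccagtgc
Wnt11: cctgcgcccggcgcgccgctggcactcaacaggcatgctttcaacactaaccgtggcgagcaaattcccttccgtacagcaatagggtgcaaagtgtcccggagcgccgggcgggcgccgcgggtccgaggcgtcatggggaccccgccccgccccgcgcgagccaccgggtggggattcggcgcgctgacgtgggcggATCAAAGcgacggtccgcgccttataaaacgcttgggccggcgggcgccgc
The match in Wnt11 begins 51 bases before its start, and a second Wnt11 window, at another start, had none. The other match was in Wnt5b, 71 bases before a start that lies inside the annotated gene. A match of these letters is a description of the sequence only, and the Fzd1 and Fzd7 windows do not hold them.

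Among the 17 ligands, 4 were tested: Wnt2b, Wnt4, Wnt5a and Wnt5b. The ligand sum was 5.79 to 7.60 FPKM in the GsMTx4 libraries, 9.42 to 14.9 FPKM in the DSS libraries and 6.36 to 8.39 FPKM in the Control libraries. All 3 DSS libraries stood above the other 6. Wnt2b, a ligand made by stromal cells of the gut, supplied the largest share of that sum in each library. Its share was 37.7% to 47.3% in GsMTx4, 29.2% to 36.9% in DSS and 40.1% to 46.5% in Control. Its level was 2.18 to 3.59 FPKM in GsMTx4, 2.75 to 5.49 FPKM in DSS and 2.55 to 3.83 FPKM in Control, so the groups overlapped, and Wnt2b passed in no comparison.

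Wnt5a, a ligand known for beta-catenin-independent signalling and made by mesenchymal cells around wounds and crypts, had the smallest p of the 4 tested ligands. It had 1.01, 0.899 and 0.626 FPKM in the GsMTx4 libraries, 2.33, 2.74 and 3.86 FPKM in the DSS libraries, and 0.924, 1.25 and 1.01 FPKM in the Control libraries. Every DSS library was above all 6 others, and the GsMTx4 and Control libraries overlapped. Wnt5a fell in GsMTx4 against DSS by 1.10 ± 0.17 (adjusted p = 0.00672) and rose in DSS against Control, with a log2 fold change of 0.93 ± 0.17 (adjusted p = 0.00872). In GsMTx4 against Control the log2 fold change was -0.16, with a 95% interval from -0.55 to 0.23. Wnt5a made up 10.8% to 13.3% of the ligand sum in GsMTx4, 23.0% to 26.0% in DSS and 12.2% to 14.9% in Control. The gene lies on chromosome 14 at 28504750 to 28527448 (GRCm38), where Gm2670 overlaps it on the opposite strand. The counting's use of strand is not given in the sources used here, so reads of overlapping genes may be shared.

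Wnt4, a ligand with roles in stromal and epithelial development, was lower in level and followed a similar order. It had 0.749, 1.01 and 0.928 FPKM in GsMTx4, 1.17, 1.62 and 2.03 FPKM in DSS, and 0.913, 0.668 and 0.663 FPKM in Control. Again the DSS libraries lay above the other 6 without overlap. Outside DSS, GsMTx4 2 alone reached 1 FPKM, so Wnt4 was tested only because it was high in the DSS group. Wnt4 rose in DSS against Control, with a log2 fold change of 0.57 ± 0.16 (adjusted p = 0.0425), and in GsMTx4 against DSS the log2 fold change was -0.45 ± 0.16 (adjusted p = 0.0994). The Wnt4 call was lost when GsMTx4 2, DSS 2, DSS 3 or any Control library was left out, with adjusted p from 0.0534 to 0.138 in those fits. Wnt5b, a close paralog of Wnt5a, had 1.04, 0.965 and 0.824 FPKM in GsMTx4, 1.58, 2.55 and 1.42 FPKM in DSS, and 1.39, 1.57 and 1.51 FPKM in Control. Here it was the GsMTx4 libraries that stood apart, below the other 6. The difference did not pass (GsMTx4 against DSS -0.53 ± 0.17, adjusted p = 0.0673; GsMTx4 against Control -0.36 ± 0.17, adjusted p = 0.509). Fbxl14 overlaps Wnt5b on the opposite strand.

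**Figure D2:**
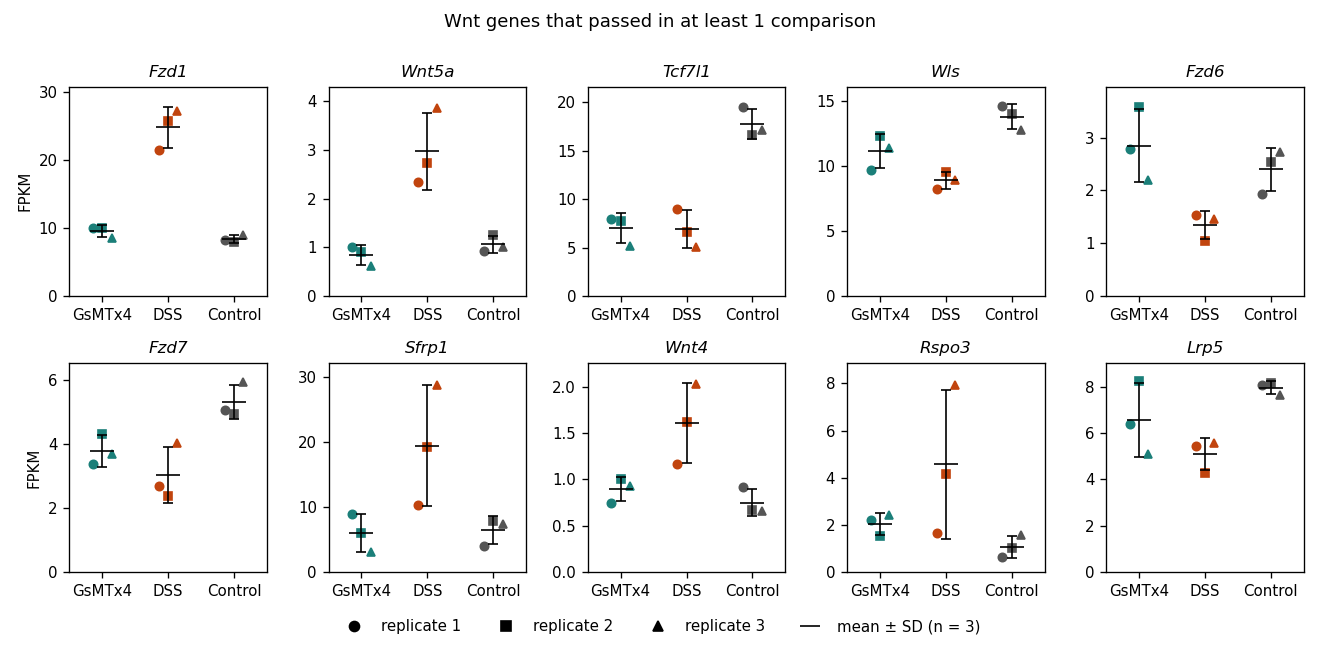
FPKM (vertical axis, linear from 0) of the 10 members that passed in at least 1 comparison, in each of the 9 libraries; points are single libraries, horizontal bars the mean of 3 and vertical bars 1 SD, with GsMTx4, DSS and Control from left to right. Fzd1, Wnt5a, Wnt4 and Sfrp1 are higher in all 3 DSS libraries than in the other 6, and Tcf7l1, Fzd7 and Wls are higher in all 3 Control libraries than in the other 6.

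Before a Wnt protein can leave the cell it is lipid-modified by PORCN and carried to the surface by Wntless, the product of Wls. Wls had 9.70, 12.3 and 11.4 FPKM in GsMTx4, 8.22, 9.54 and 8.88 FPKM in DSS, and 14.6, 13.99 and 12.8 FPKM in Control. The 3 groups did not overlap, with DSS lowest, GsMTx4 between and Control highest. Wls fell in DSS against Control by 0.58 ± 0.13 (adjusted p = 0.0166). It had log2 fold changes of 0.29 ± 0.13 in GsMTx4 against DSS (adjusted p = 0.160) and -0.29 ± 0.13 in GsMTx4 against Control (adjusted p = 0.492). The Wls call was lost without Control 1 or Control 2 (adjusted p 0.0643 to 0.0708). Porcn had means of 1.40 ± 0.183, 1.30 ± 0.384 and 1.33 ± 0.122 FPKM in GsMTx4, DSS and Control (SD, n = 3 each), and passed in no comparison.

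Of the 10 Frizzled receptors, 7 were tested, and 3 of them passed in at least 1 comparison, in differing directions. Fzd1 (ENSMUSG00000044674, chromosome 5 at 4753839 to 4758035) had 10.1, 10.0 and 8.54 FPKM in GsMTx4, 21.4, 25.8 and 27.1 FPKM in DSS, and 8.25, 7.92 and 9.01 FPKM in Control. The lowest DSS library was more than 2-fold above the highest of the other 6. The mean was 9.53 ± 0.854 FPKM in GsMTx4, 24.8 ± 2.99 FPKM in DSS and 8.40 ± 0.559 FPKM in Control (SD, n = 3 each). Fzd1 fell in GsMTx4 against DSS by 1.29 ± 0.13 (adjusted p = 0.00151) and rose in DSS against Control, with a log2 fold change of 1.45 ± 0.13 (adjusted p = 0.000631). In GsMTx4 against Control its log2 fold change was 0.16, with a 95% interval from -0.14 to 0.46. Of the members, Fzd1 had the smallest p.

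Fzd6, a receptor known for planar cell polarity, had 2.78, 3.58 and 2.19 FPKM in GsMTx4, 1.53, 1.04 and 1.46 FPKM in DSS, and 1.94, 2.53 and 2.73 FPKM in Control. The DSS libraries were the 3 lowest. Fzd6 rose in GsMTx4 against DSS, with a log2 fold change of 0.71 ± 0.18 (adjusted p = 0.0333). In DSS against Control it was -0.53 ± 0.18 (adjusted p = 0.0646). Without GsMTx4 1, GsMTx4 2, any DSS library, Control 2 or Control 3 the Fzd6 call was lost (adjusted p 0.0547 to 0.110), while without GsMTx4 3 Fzd6 also passed as lower in DSS against Control (adjusted p = 0.0460). Gm26704 overlaps Fzd6 on the opposite strand.

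Fzd7, a Wnt receptor of crypt stem cells, had 3.36, 4.31 and 3.67 FPKM in GsMTx4, 2.69, 2.37 and 4.02 FPKM in DSS, and 5.05, 4.94 and 5.92 FPKM in Control. The Control libraries were the 3 highest, and the GsMTx4 and DSS libraries overlapped. Fzd7 fell in DSS against Control by 0.66 ± 0.17 (adjusted p = 0.0298). Its log2 fold change was -0.40 ± 0.17 in GsMTx4 against Control (adjusted p = 0.478). The Fzd7 call was lost without DSS 1, DSS 2 or any Control library, with adjusted p from 0.0735 to 0.106.

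Fzd5, an epithelial receptor, was the second largest receptor in the DSS libraries, and passed in no comparison. It had 13.97, 10.2 and 7.19 FPKM in GsMTx4, 11.8, 9.46 and 9.06 FPKM in DSS, and 10.0, 10.4 and 11.6 FPKM in Control. Fzd4, a receptor of endothelial cells among others, had means of 1.81 ± 0.237 FPKM in GsMTx4, 2.78 ± 0.504 FPKM in DSS and 1.81 ± 0.655 FPKM in Control (SD, n = 3 each). Fzd2 and Fzd8 had their single highest value in DSS 3, 3.75 and 3.17 FPKM, and lay between 1.15 and 1.98 FPKM in the other 8 libraries. None of these 4 passed.

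The make-up of the receptor pool followed from these levels. Fzd1 made up 28.9%, 30.7% and 32.6% of the summed FPKM of the 10 Frizzled genes in GsMTx4, 50.2%, 57.8% and 51.6% in DSS, and 27.7%, 24.8% and 25.3% in Control. Fzd5 made up 27.4% to 40.1% in GsMTx4, 17.2% to 27.6% in DSS and 32.6% to 33.5% in Control. Fzd7 made up 9.65% to 13.99% in GsMTx4, 5.32% to 7.65% in DSS and 15.5% to 16.9% in Control. Fzd1 was therefore the most abundant Frizzled in each DSS library, whereas Fzd5 was the most abundant in each Control library. In GsMTx4, Fzd5 led in libraries 1 and 2 and Fzd1 in library 3. These shares rest on the levels already described and were not tested.

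**Figure D3:**
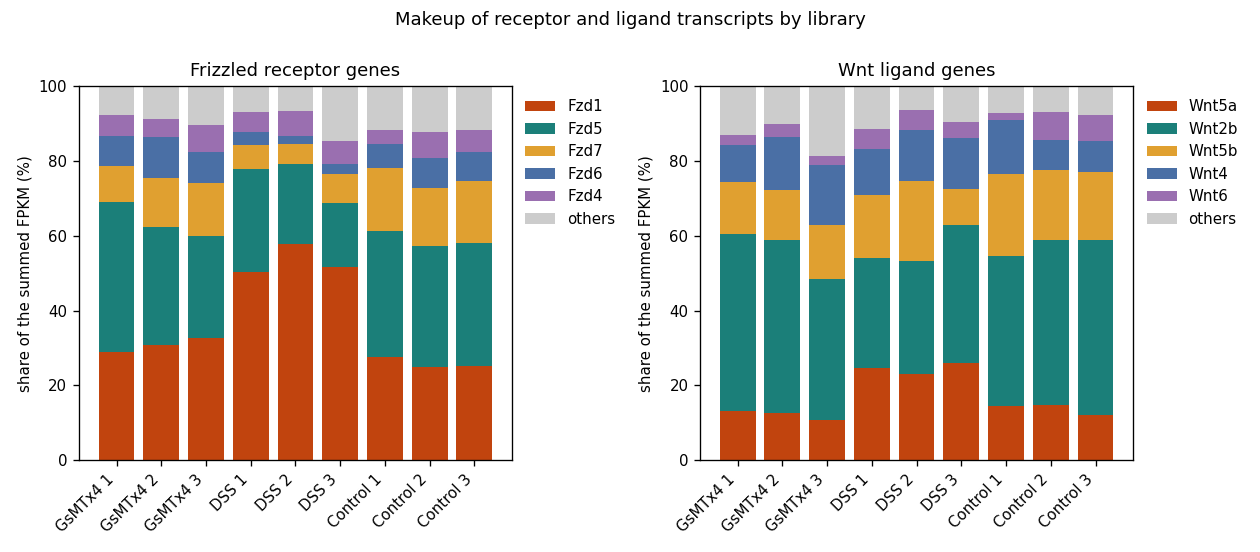
Share of the summed FPKM (percent, vertical axis) held by the 5 leading Frizzled receptors and, in the other panel, the 5 leading Wnt ligands in each of the 9 libraries, with the remaining genes of each family in grey, and GsMTx4, DSS and Control libraries from left to right. The Fzd1 segment covers 50.2% to 57.8% in the DSS libraries, against 24.8% to 32.6% in the other 6.

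The coreceptors LRP5 and LRP6 sit beside Frizzled and bind the same ligand. Their summed level was 13.5 to 20.3 FPKM in GsMTx4, 11.4 to 14.4 FPKM in DSS and 18.0 to 18.8 FPKM in Control. Lrp5 had 6.37, 8.25 and 5.08 FPKM in GsMTx4, 5.46, 4.28 and 5.55 FPKM in DSS, and 8.09, 8.15 and 7.63 FPKM in Control. All 3 DSS libraries were below all 3 Control libraries, and the GsMTx4 libraries overlapped both. Lrp5 fell in DSS against Control by 0.56 ± 0.17, with an adjusted p of 0.0496, just inside the threshold. The Lrp5 call was lost without GsMTx4 1 and without any DSS or Control library (adjusted p 0.0624 to 0.142). Lrp6 had 11.6, 12.1 and 8.45 FPKM in GsMTx4, 8.40, 7.11 and 8.89 FPKM in DSS, and 10.2, 10.7 and 10.4 FPKM in Control. Its DSS libraries were below its Control libraries, at a log2 fold change of -0.32 ± 0.15 (adjusted p = 0.160). In GsMTx4 against DSS it was 0.35 ± 0.15 (adjusted p = 0.159), and GsMTx4 3 lay inside the DSS range. Without GsMTx4 3, Lrp6 passed as higher in GsMTx4 (adjusted p = 0.0462).

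Of the 6 potentiators, the R-spondins and their receptors Lgr4 and Lgr6, only Rspo3 and Lgr4 were tested. Rspo3, an R-spondin made by stromal cells next to the crypts and by lymphatic endothelium, had 2.19, 1.53 and 2.41 FPKM in GsMTx4, 1.66, 4.16 and 7.93 FPKM in DSS, and 0.645, 1.02 and 1.57 FPKM in Control. The DSS libraries spread more widely than the other groups, and DSS 1 fell inside the GsMTx4 range. Rspo3 rose in DSS against Control, with a log2 fold change of 1.28 ± 0.38 (adjusted p = 0.0491), and was -0.72 ± 0.38 in GsMTx4 against DSS (adjusted p = 0.243). The rise was lost without any single GsMTx4 or Control library and without DSS 2 or DSS 3 (adjusted p 0.0549 to 0.142); without DSS 1, Rspo3 passed as lower in GsMTx4 against DSS (adjusted p = 0.0409). Lgr4, the R-spondin receptor of the whole crypt epithelium, had 48.5, 47.7 and 38.6 FPKM in GsMTx4, 36.9, 36.2 and 33.9 FPKM in DSS, and 44.8, 38.1 and 38.7 FPKM in Control. Its DSS libraries were the 3 lowest, and no comparison passed (GsMTx4 against DSS 0.32 ± 0.14, adjusted p = 0.152).

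The 10 secreted inhibitors were led by Sfrp1 and Dkk3. Sfrp1, a decoy that binds Wnt proteins outside the cell, had 8.93, 6.09 and 3.07 FPKM in GsMTx4, 10.3, 19.2 and 28.9 FPKM in DSS, and 4.00, 7.92 and 7.46 FPKM in Control. The DSS libraries were the 3 highest, with DSS 1 close to GsMTx4 1. Sfrp1 fell in GsMTx4 against DSS by 1.52 ± 0.42 (adjusted p = 0.0459), while in DSS against Control its log2 fold change of 1.39 ± 0.42 missed the threshold (adjusted p = 0.0502). The fall was lost without GsMTx4 2, GsMTx4 3, DSS 2, DSS 3 or any Control library (adjusted p 0.0534 to 0.124). The DSS against Control difference passed without GsMTx4 1 (adjusted p = 0.0463), GsMTx4 3 (adjusted p = 0.0338) or DSS 1 (adjusted p = 0.0243).

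Sfrp2, a relative of Sfrp1 found in fibroblasts, had 3.09, 1.35 and 1.94 FPKM in GsMTx4, 3.12, 5.57 and 1.002 FPKM in DSS, and 1.31, 0.840 and 1.01 FPKM in Control. Here DSS 3 was low where it was highest for Sfrp1. No comparison passed with all libraries, and without DSS 3 Sfrp2 passed as higher in DSS against Control (adjusted p = 0.0217). Dkk3, an atypical member of the Dickkopf family, had means of 10.9 ± 0.870 FPKM in GsMTx4, 12.7 ± 4.11 FPKM in DSS and 11.0 ± 2.50 FPKM in Control (SD, n = 3 each), and passed in no comparison. The sum of the 10 inhibitors was 17.7 to 25.1 FPKM in GsMTx4, 23.4, 40.7 and 57.2 FPKM in DSS 1, DSS 2 and DSS 3, and 14.9 to 23.7 FPKM in Control.

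Inside the membrane and the cell, ZNRF3 clears Frizzled from the surface, NKD1 restrains Dishevelled and APC is a scaffold of the complex that destroys beta-catenin. Znrf3, plotted with the other pathway genes, had 1.33, 1.67 and 1.12 FPKM in GsMTx4, 0.613, 0.604 and 0.837 FPKM in DSS, and 1.29, 1.71 and 1.19 FPKM in Control. The DSS libraries were below the other 6 without overlap. The log2 fold change was 0.49 ± 0.15 in GsMTx4 against DSS (adjusted p = 0.0680) and -0.51 ± 0.15 in DSS against Control (adjusted p = 0.0512), so neither passed. Without GsMTx4 3 the DSS against Control value passed (adjusted p = 0.0439). Nkd1 reached 1.43, 2.88 and 6.44 FPKM in DSS, beside 1.49 to 2.12 FPKM in GsMTx4 and 1.02 to 1.92 FPKM in Control, and passed only without DSS 1 (DSS against Control, adjusted p = 0.0373). Apc varied most within Control, at 2.21, 6.01 and 1.69 FPKM, beside 3.79 to 5.48 FPKM in GsMTx4 and 2.49 to 4.12 FPKM in DSS, and did not pass.

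The 3 effectors were beta-catenin (Ctnnb1) and the DNA-binding partners Tcf7l1 and Tcf7l2. Tcf7l1, which represses Wnt target genes in the absence of signal, had 8.01, 7.79 and 5.21 FPKM in GsMTx4, 8.98, 6.67 and 5.11 FPKM in DSS, and 19.5, 16.7 and 17.2 FPKM in Control. The GsMTx4 and DSS libraries covered nearly the same range, and the lowest Control library, at 16.7 FPKM, was above all of them. Tcf7l1 fell in DSS against Control by 1.27 ± 0.21 (adjusted p = 0.00539). In GsMTx4 against DSS its log2 fold change was 0.02, with a 95% interval from -0.44 to 0.49. In GsMTx4 against Control the log2 fold change was -1.25 ± 0.21, close in size to the DSS difference, but its adjusted p over all genes was 0.0709. Predicted transcripts, Gm15401 on the opposite strand and Gm37969 on the same strand among them, overlap Tcf7l1.

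Ctnnb1 was the most abundant member, at 139, 129.96 and 96.8 FPKM in GsMTx4, 128, 112 and 121 FPKM in DSS, and 100.01, 114 and 95.8 FPKM in Control. The groups overlapped in every comparison. The 95% interval of its log2 fold change ran from -0.38 to 0.38 in GsMTx4 against DSS and from -0.16 to 0.60 in DSS against Control. Tcf7l2, the main TCF factor of the intestinal epithelium, had means of 3.70 ± 1.46 FPKM in GsMTx4, 3.88 ± 0.866 FPKM in DSS and 4.18 ± 0.589 FPKM in Control (SD, n = 3 each), and did not pass.

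Across roles, the calls that were lost under none of the alternatives run were those of Fzd1 and Wnt5a in GsMTx4 against DSS and of Fzd1, Wnt5a and Tcf7l1 in DSS against Control. Their highest adjusted p was 0.0146 for Fzd1 and 0.0330 for Wnt5a in the first comparison, and 0.00567 for Fzd1, 0.0393 for Wnt5a and 0.0245 for Tcf7l1 in the second. Wnt5a was not tested under the filter on a mean of 5 FPKM. Testing with no filter ended the calls of Wnt4, Rspo3, Fzd7 and Lrp5 in DSS against Control and of Fzd6 and Sfrp1 in GsMTx4 against DSS. Rescaling to TPM ended those of Wnt4, Lrp5, Fzd6 and Sfrp1, and fitting only the compared groups those of Wnt4, Rspo3, Fzd6 and Sfrp1. Median-of-ratios scaling ended the calls of Wls and Lrp5, a pseudocount of 0.1 those of Lrp5 and Sfrp1, and the fit without trend that of Lrp5. Other settings added calls in DSS against Control. Sfrp1 passed as higher with the mean filter (adjusted p = 0.0494), median-of-ratios scaling (0.0341), quantile normalization (0.0353) and only the compared groups (0.0469), and Znrf3 as lower with a pseudocount of 0.1 (0.0473) and without trend (0.0422).

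DSS 3 was the highest of the 9 libraries for 12 of the 26 tested members (46.2%), beside 17.3% of all genes tested. Among the 3 DSS libraries alone it was highest for 16 of 26 (61.5%), beside 43.9% of all genes tested.

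Marker genes of cell types that colon tissue can hold were read beside the members, and no marker was at 0 in all 9 libraries. The 8 fibroblast markers summed to 149 to 180 FPKM in GsMTx4, 178, 267 and 345 FPKM in DSS 1, DSS 2 and DSS 3, and 174 to 193 FPKM in Control. Col1a1, Col1a2 and Pdgfra fell in GsMTx4 against DSS, and 0 of the 8 passed in DSS against Control. Of those 3 falls, 0 were left without GsMTx4 2, GsMTx4 3, DSS 2, DSS 3, Control 2 or Control 3, and 1 without Control 1. The enteric neuron and glia sum was 3.22 to 4.68 FPKM in GsMTx4, 3.06, 4.99 and 15.6 FPKM in DSS, and 2.51 to 5.35 FPKM in Control, DSS 3 being highest. Of its 2 tested markers, 1, Ret, fell in GsMTx4 against DSS and rose in DSS against Control. The fall of Ret was lost without GsMTx4 2, GsMTx4 3, DSS 2, DSS 3, Control 2 or Control 3, and its rise without DSS 2, DSS 3 or any Control library. The endothelial sum was 9.54 to 15.03 FPKM in GsMTx4, 13.8 to 26.4 FPKM in DSS and 8.31 to 11.8 FPKM in Control, and 3 of 5 markers, Tek, Pecam1 and Emcn, rose in DSS against Control, with 0 left without DSS 1, DSS 3, Control 1 or Control 2 and 1 without Control 3. The leukocyte sum was 25.9 to 31.4 FPKM in GsMTx4, 31.1 to 60.6 FPKM in DSS and 17.5 to 26.9 FPKM in Control, with 0 of 5 markers passing in either comparison with DSS. The epithelial sum overlapped across the groups, at 5235 to 6853 FPKM in GsMTx4, 5011 to 7215 FPKM in DSS and 5348 to 6560 FPKM in Control, with 0 of 8 markers passing in either. The 7 smooth muscle markers, of which none passed, summed to 648 to 867 FPKM in GsMTx4, 250, 713 and 1002 FPKM in DSS 1, DSS 2 and DSS 3, and 519 to 824 FPKM in Control. The 5 hepatocyte markers summed to 30.3 to 48.8 FPKM in GsMTx4, 2.39 to 5.97 FPKM in DSS and 20.1 to 25.8 FPKM in Control, where 4 of 4 tested rose in GsMTx4 against DSS, 3 rose in GsMTx4 against Control and 2 fell in DSS against Control. The falls numbered 1 without DSS 1, DSS 3 or any Control library. The rises in GsMTx4 against Control numbered 2 without GsMTx4 1 or any DSS or Control library. The 4 adipocyte markers summed to 0.460 to 0.855 FPKM in GsMTx4, 3.55 to 4.68 FPKM in DSS and 0.508 to 1.66 FPKM in Control, so the DSS libraries stood above the other 6, as they did for Fzd1 and Wnt5a. The 1 tested adipocyte marker, Cidec, fell in GsMTx4 against DSS and rose in DSS against Control, and both calls held on leaving out each library in turn. The adipocyte sum was under 1 FPKM in every GsMTx4 library and in Control 1. Cidec could therefore meet the filter only with DSS libraries, the group where it was high. Fits without a library kept the genes filtered on all 9, so they did not recheck that entry. The part of these differences in the member results was not tested.

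Other genes of the pathway were described beside the members, from a list of 49 genes, of which 41 were tested. In DSS against Control 6 of the 41 (14.6%) fell and 0 rose, near the 10.7% of all genes tested that fell; 12 had an unadjusted p under 0.05. In GsMTx4 against DSS 2 rose and 1 fell, where 6.66% and 5.62% of all genes did, and in GsMTx4 against Control limma called 0, with 9 at an unadjusted p under 0.05. The median log2 fold change in DSS against Control was -0.16 for the list and -0.17 over all genes, so the list as a whole sat at the level of all genes. The 15 crypt targets of beta-catenin, of which 11 were tested, held 5 of the 6 that fell, and their median was -0.84. Among these, Ascl2 met the filter only through the Control group, where it was high, so its place in these counts depends on that group. None of the 11 tested membrane genes or of the 8 tested nuclear genes on the list passed in DSS against Control.

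Axin2, a scaffold of the destruction complex and a general target of Wnt signalling, had 1.51, 4.66 and 3.35 FPKM in GsMTx4, 0.843, 0.413 and 0.814 FPKM in DSS, and 5.87, 4.93 and 5.91 FPKM in Control. The 3 groups did not overlap. Axin2 rose in GsMTx4 against DSS, with a log2 fold change of 1.24 ± 0.27 (adjusted p = 0.0208), and fell in DSS against Control by 1.97 ± 0.27 (adjusted p = 0.00272). The rise was lost without GsMTx4 2, GsMTx4 3 or DSS 2 (adjusted p 0.0543 to 0.0646). It was also lost with no filter and with only the compared groups. Ascl2, a transcription factor of crypt stem cells, had 0.107, 2.25 and 2.85 FPKM in GsMTx4, 0, 0.0571 and 0.0906 FPKM in DSS, and 3.22, 4.77 and 5.05 FPKM in Control. GsMTx4 1 was close to the DSS libraries and the other GsMTx4 libraries were nearer to Control. Outside Control, only GsMTx4 2 and GsMTx4 3 reached 1 FPKM, so Ascl2 was tested only because it was high in the Control group. Ascl2 fell in DSS against Control by 2.33 ± 0.41 (adjusted p = 0.00672), and in GsMTx4 against DSS it was 1.20 ± 0.41 (adjusted p = 0.0850), passing without GsMTx4 1 (adjusted p = 0.00304).

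Lgr5, the stem cell marker and R-spondin receptor, was below the filter at 0.0275, 0.534 and 0.244 FPKM in GsMTx4, 0.00469, 0.0227 and 0.0170 FPKM in DSS, and 0.975, 0.840 and 1.01 FPKM in Control, and was not tested. Its order over the groups was that of Axin2, with no overlap. Smoc2, a secreted protein of crypt-base cells, had 0.526, 3.93 and 1.83 FPKM in GsMTx4, 0.1003, 0.178 and 1.08 FPKM in DSS, and 3.83, 4.39 and 4.49 FPKM in Control. It fell in DSS against Control by 1.91 ± 0.39 (adjusted p = 0.0131; 0.0504 without Control 2), and passed as higher in GsMTx4 against DSS only without GsMTx4 1 (adjusted p = 0.0293). Sox9, a factor of crypt progenitors, and Ephb3, a receptor that positions cells along the crypt, fell in DSS against Control by 0.96 ± 0.17 (adjusted p = 0.00662) and 1.42 ± 0.28 (adjusted p = 0.0112). Ctnnbip1, an inhibitor that keeps beta-catenin from TCF factors, fell by 0.73 ± 0.14 (adjusted p = 0.0108).

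Rnf43, whose product clears Frizzled from the cell surface as ZNRF3 does, had 4.78, 6.09 and 4.73 FPKM in GsMTx4, 4.20, 1.56 and 1.22 FPKM in DSS, and 4.68, 4.15 and 4.74 FPKM in Control. DSS 1 lay inside the Control range. Rnf43 rose in GsMTx4 against DSS, with a log2 fold change of 0.997 ± 0.28 (adjusted p = 0.0498), a call lost on leaving out any library but DSS 1 (adjusted p 0.0741 to 0.152). That call was also lost under every other alternative that tested Rnf43, except quantile normalization. Without DSS 1, Rnf43 fell in DSS against Control (adjusted p = 0.00396). Tcf7, a TCF factor that is also abundant in T cells, had 3.35, 3.29 and 2.79 FPKM in GsMTx4, 12.3, 4.17 and 8.29 FPKM in DSS, and 3.89, 3.67 and 4.11 FPKM in Control. It fell in GsMTx4 against DSS by 1.06 ± 0.29 (adjusted p = 0.0434), a call lost on leaving out any library but DSS 2 (adjusted p 0.0668 to 0.112). The Tcf7 call was also lost with no filter, TPM rescaling, only the compared groups and a block for the replicate numbers. Without DSS 2, Tcf7 rose in DSS against Control (adjusted p = 0.00792). The leukocyte marker sums were 60.6, 31.1 and 38.4 FPKM in DSS 1, DSS 2 and DSS 3, and their part in the Tcf7 values was not tested.

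**Figure D4:**
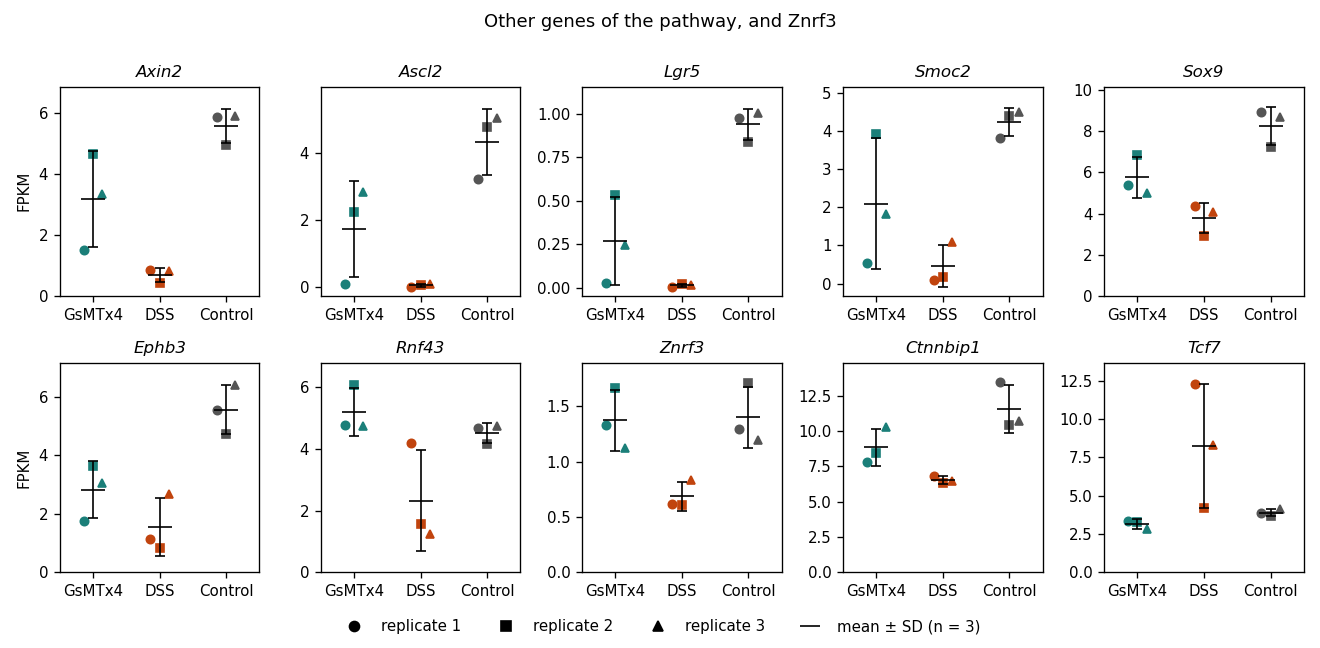
FPKM (vertical axis, linear, starting at or just below 0) of Znrf3 and of pathway and target genes outside the member list in each of the 9 libraries; points are single libraries, horizontal bars the mean of 3 and vertical bars 1 SD, with GsMTx4, DSS and Control from left to right. Axin2 is highest in Control, lowest in DSS and between them in GsMTx4, and GsMTx4 1 is the lowest GsMTx4 library for Axin2, Ascl2, Lgr5 and Smoc2.

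The 28 members below the filter were not tested. Wnt7b and Rspo4os were listed at 0 in all 9 libraries, and 25 of the 28 stayed under 1 FPKM in every library. Wnt11, a ligand of the beta-catenin-independent branch, had 0.112, 0.125 and 0.0562 FPKM in GsMTx4, 0.249, 0.313 and 0.360 FPKM in DSS, and 0.0695, 0.0461 and 0.0516 FPKM in Control. Its DSS libraries lay above the other 6, at levels that the log2(FPKM + 1) scale compresses. Frzb, a secreted Wnt decoy, stood at 5.77 FPKM in DSS 3 and at 0.200 to 0.710 FPKM in the other 8 libraries. Dkk2, an antagonist of LRP6, likewise reached 0.940 FPKM in DSS 3 and at most 0.0997 FPKM in the others. Sfrp4 reached 1.46 and 1.10 FPKM in DSS 2 and DSS 3, and Sfrp5 reached 1.82 FPKM in DSS 3. Rspo1, an R-spondin of stromal and mesothelial cells, had 0.0747, 0 and 0.255 FPKM in GsMTx4, 0.398, 0.725 and 0.782 FPKM in DSS, and 0.105, 0.209 and 0.373 FPKM in Control. DSS again stood above the other libraries, by a narrow margin over Control 3. The mesothelial marker sum was 0.113 to 0.303 FPKM in GsMTx4, 0.863 to 1.61 FPKM in DSS and 0.0561 to 0.901 FPKM in Control. Dkk1 and Notum, feedback inhibitors induced by Wnt signalling in some tissues, were at most 0.0436 FPKM in any library. Wnt3, the ligand of Paneth cells in the small intestine, was at most 0.0648 FPKM. Other patterns occurred too. Wif1 was lowest in GsMTx4 (0.0270 to 0.137 FPKM), beside 0.221 to 0.798 FPKM in DSS and 0.224 to 0.355 FPKM in Control. Wnt9a was lowest in Control (0.0918 to 0.150 FPKM), beside 0.152 to 0.389 FPKM in GsMTx4 and 0.200 to 0.357 FPKM in DSS. Also under 1 FPKM throughout were Wnt2, Wnt6, Wnt7a, Wnt8a, Wnt8b, Wnt9b, Wnt10a, Wnt10b, Wnt16, Fzd3, Fzd9, Fzd10, Lgr6, Rspo2 and Rspo4.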

How the data were processed

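RNA from 9 colon libraries was measured by RNA sequencing. The authors deposited 1 table of FPKM values per gene. Per the submitters' processing notes, cutadapt, FastQC and the build GRCm38 were used; no source used here names the aligner, the program that computed FPKM or the use of strand. Read depth is unknown, so no counting interval can be given.

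Gene IDs were matched to GENCODE M21 on GRCm38, which gave symbols for 35196 of 35315 genes; Rspo4os was matched by its symbol. Coordinates are from that annotation and promoter sequences from RefSeq (GRCm38.p6). Groups came from the sample labels. The whole table was fitted with limma 3.58.1 in R 4.3.3 on log2(FPKM + 1), with trended empirical Bayes, for genes with at least 1 FPKM in at least 3 of 9 libraries. All 9 libraries shared one estimate of the spread, with 6 residual degrees of freedom before moderation. Each of the 3 contrasts was two-sided, adjusted by Benjamini-Hochberg over 14360 genes, and called at an adjusted p under 0.05. The fit was tested on simulated data.

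The members and gene lists were chosen with earlier results of these data known. Members were named with full values if they passed in at least 1 comparison or were among the 15 with the smallest p. Full values are also given for Fzd5 and Ctnnb1, which are among the highest of their roles by mean FPKM. The same holds for Wnt11 and Rspo1, which were below the filter. Alternatives were another pseudocount (0.1), other filters, TPM rescaling, median-of-ratios scaling, quantile normalization, fits of the compared groups alone, no trend, a replicate block, and leaving out each library.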

Additional observations from a re-analysis of the deposited data

How the results depend on the processing

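No member that was tested changed direction in a comparison it had passed, under any alternative run. In DSS against Control, 4 members rose and 4 fell. With a mean FPKM filter of 5 (fewer genes tested) 2 rose, Fzd1 and Sfrp1. Sfrp1 was not among the 4, and Wnt5a, Wnt4 and Rspo3 were below that filter and not tested there. With no filter 2 fell, and 2 fell with median-of-ratios scaling. In GsMTx4 against DSS, 1 rose, and 0 rose with no filter, with TPM rescaling, with the compared groups alone or with the replicate block, as only Fzd6 had been called. With the mean filter 0 rose as well, but Fzd6 was below that filter and was not tested there. Leaving out each library in turn gave 2 to 6 that rose and 1 to 6 that fell in DSS against Control, 0 to 2 that rose and 2 to 4 that fell in GsMTx4 against DSS, and 0 in either direction in GsMTx4 against Control. Apart from fewer genes or samples, the cause of these moves was not tested. Whether the replicate numbers pair the libraries is not stated. Deviations from the group mean correlated between -0.233 and 0.0998 for same-numbered libraries and between -0.187 and 0.311 for differently numbered ones. With 3 libraries per group, these values cannot exclude a pairing. With the replicate block 3 members rose and 3 fell in DSS against Control, 0 rose and 2 fell in GsMTx4 against DSS, and 1, Tcf7l1, fell in GsMTx4 against Control (adjusted p = 0.0477); the block ended the calls of Wnt4 in DSS against Control (0.0833), Lrp5 in DSS against Control (0.0948), Fzd6 in GsMTx4 against DSS (0.0766) and Sfrp1 in GsMTx4 against DSS (0.0811). Scaling moved the median of all genes in DSS against Control by -0.11 (TPM), 0.15 (median-of-ratios) and 0.11 (quantile), and in GsMTx4 against Control by -0.11 (TPM). With no filter, Wnt11 was tested and passed in GsMTx4 against DSS (adjusted p = 0.0231) and in DSS against Control (adjusted p = 0.00941). Read depth is unknown, and members below 1 FPKM carry the least certain values.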
